A study of Homo sapiens with 6 samples.

Results

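The aldo-keto reductases are oxidoreductases that use NADPH to turn aldehydes and ketones into alcohols. Those of the AKR1C branch act as hydroxysteroid dehydrogenases and prostaglandin reductases, AKR1B10 reduces retinal and lipid aldehydes, and the AKR7A branch takes dicarbonyls such as the aldehydes of aflatoxin. Several of them are known targets of NRF2, the transcription factor that answers oxidative stress. The set covers 9 genes, AKR1A1, AKR1B1, AKR1B10, AKR1C1, AKR1C2, AKR1C3, AKR1C4, AKR7A2 and AKR7A3, and takes every probe set that GEO's platform annotation gives to any of them. Of the 9 genes, 7 had such probe sets, 16 in all out of 54613. The remaining 2, AKR1A1 and AKR1B1, were named by no probe set of that annotation and were not analysed here. One of the 16 probe sets is given to both AKR1C1 and AKR1C2.

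The cells were Capan-1, an established line from a human pancreatic carcinoma. Cells of 3 samples had been transfected with a full-length p16INK4a cDNA (p16 samples) and those of 3 samples had been mock-transfected (mock samples), with the numbers V1, V2 and V3 in each group. The cDNA is driven by the CMV promoter of the vector pRC/CMV, which carries neomycin resistance, and the labels give hygromycin and G418 as the selecting drugs for all 6 samples. What the V number stands for, whether a group is 1 clone and whether its samples grew as separate cultures is not given in the labels. All p-values below therefore rest on a spread between samples that may be purely technical.

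One Affymetrix array was used per sample. Levels are the authors' log2 expression values from GCRMA, in which the lowest probe sets pile up, so a level under 4 is called the floor here. The array medians were 3.14 to 3.18 in p16 samples and 3.11 to 3.13 in mock samples. The brightest probe set of CDKN2A, which encodes p16, read 12.60 ± 0.45 in p16 samples and 6.01 ± 0.41 in mock samples (SD, n = 3 each), and another read 11.92 ± 0.04 and 2.03 ± 0.01. MTAP, which lies beside CDKN2A on chromosome 9 and is not part of a p16 cDNA, was also high only in p16 samples, at 11.05 ± 0.29 against 2.07 ± 0.01 in mock samples. An effect of the p16 cDNA therefore cannot be told apart from other differences between the cells of both groups. In bulk RNA, fewer cells that express a gene and less of its RNA per cell cannot be told apart either. Of 10 duct epithelium markers, all were at 4 or more in every mock sample and 8 in every p16 sample (CEACAM6 and TSPAN8 were at the floor there), and their summed level was 90.8 to 94.5 in p16 samples and 129 to 131 in mock samples. All 3 leukocyte and all 4 endothelial markers measured were at the floor in every sample. Of 6 fibroblast markers, COL1A2, COL3A1 and DCN were at the floor in every sample, and COL1A1 was at 4 or more in every sample of both groups. LUM was at 4 or more in every p16 sample and at the floor in every mock sample. The summed level of the 6 was 28.6 to 30.6 in p16 samples and 20.9 to 21.5 in mock samples. The part of these differences in the results below was not tested.

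AKR1C1, AKR1C2, AKR1C3 and AKR1C4 lie in 1 cluster on chromosome 10, and their start regions are shown because the first 3 of them were lower together in p16 samples. Each sequence is the RefSeq window on GRCh38.p14 from 250 bases before to 50 bases after a transcription start, read 5′ to 3′ on the gene's strand. Capitals mark a run of 12 bases that is shared by the windows of AKR1C1, AKR1C2 and AKR1C3.
AKR1C1 (chr10:4963165-4963464, plus strand): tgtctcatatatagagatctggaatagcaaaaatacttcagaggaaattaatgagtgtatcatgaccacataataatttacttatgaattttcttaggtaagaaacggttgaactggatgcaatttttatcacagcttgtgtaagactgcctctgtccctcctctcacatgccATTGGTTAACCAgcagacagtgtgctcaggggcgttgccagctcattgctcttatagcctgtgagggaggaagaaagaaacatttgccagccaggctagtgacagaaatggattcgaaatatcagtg
AKR1C2 (chr10:5003808-5004107, minus strand): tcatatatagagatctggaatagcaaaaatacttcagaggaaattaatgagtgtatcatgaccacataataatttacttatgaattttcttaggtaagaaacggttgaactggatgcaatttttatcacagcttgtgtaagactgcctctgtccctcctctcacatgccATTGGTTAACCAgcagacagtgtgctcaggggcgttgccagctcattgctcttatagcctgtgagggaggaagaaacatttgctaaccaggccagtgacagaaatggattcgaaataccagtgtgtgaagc
AKR1C3 first start (chr10:5048531-5048830, plus strand): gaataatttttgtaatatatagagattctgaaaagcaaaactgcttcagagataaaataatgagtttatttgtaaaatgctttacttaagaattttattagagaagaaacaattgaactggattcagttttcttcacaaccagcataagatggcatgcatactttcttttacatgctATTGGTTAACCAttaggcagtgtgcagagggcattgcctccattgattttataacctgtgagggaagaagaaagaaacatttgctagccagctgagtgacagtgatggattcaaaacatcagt
AKR1C3 second start (chr10:5094164-5094463, plus strand): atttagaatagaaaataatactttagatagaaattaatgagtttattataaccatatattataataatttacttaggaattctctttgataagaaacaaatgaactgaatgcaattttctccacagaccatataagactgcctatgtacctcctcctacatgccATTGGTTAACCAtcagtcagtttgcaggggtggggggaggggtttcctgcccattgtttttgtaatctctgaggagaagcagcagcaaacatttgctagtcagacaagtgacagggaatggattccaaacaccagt
AKR1C4 (chr10:5196587-5196886, plus strand): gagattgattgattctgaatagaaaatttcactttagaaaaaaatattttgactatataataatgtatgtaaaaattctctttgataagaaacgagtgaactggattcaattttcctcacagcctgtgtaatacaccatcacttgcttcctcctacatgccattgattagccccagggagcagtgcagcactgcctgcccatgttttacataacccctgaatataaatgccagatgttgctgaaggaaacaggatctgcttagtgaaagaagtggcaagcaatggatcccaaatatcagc

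Over the aligned bases, the windows of AKR1C1 and AKR1C2 were identical at 288 of 292, or 98.6%. The other pairs of AKR1C windows were identical at 76.2% to 81.6%. The shared run, ATTGGTTAACCA, has its first base at position -73 to -86 from the transcription start in the 4 windows that hold it and contains the letters CCAAT on the other strand, the CCAAT box found in many promoters. It occurs in 5 of 35116 RefSeq windows of the same length (0.0142%), counting both strands, and these include the 4 AKR1C windows. The run was picked because these windows share it, and windows this alike share runs in any case. Its rarity elsewhere is therefore no sign of a common element. CCAAT alone, a far shorter word, occurs in 34.6%. The window of AKR1C4 holds neither the run nor CCAAT. The core of the antioxidant response element to which NRF2 binds, TGACNNNGC, was searched on both strands as well. It occurs in 13.3% of all windows, at 3 places in the windows of AKR7A2 and in none of the windows of AKR1C1, AKR1C2, AKR1C3, AKR1C4 and AKR7A3. These windows end 250 bases before the start, and a match is only a match of letters. The run and the motifs were chosen after the sequences had been seen.

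AKR1C1, which inactivates progesterone by reducing it, was about 183-fold lower in p16 samples on its brightest probe set. That probe set read 6.14, 6.46 and 6.29 in the p16 samples V1, V2 and V3, against 13.68, 13.76 and 14.00 in the mock samples. All p16 samples lay far under all mock samples, and none reached the floor. The difference of the means was -7.52 (SE 0.18). A second probe set of AKR1C1 read 6.10, 6.53 and 6.08 in p16 samples, against 11.86, 11.83 and 12.33 in mock samples, a difference of -5.77 (SE 0.23), or 54.5-fold. On another, p16 samples were at the floor, at 2.66 to 2.73, and mock samples read 4.27 to 5.16, so the fold is at least 1.72. Its remaining 2 probe sets were at the floor in every sample and give no fold.

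AKR1C2, which inactivates dihydrotestosterone, differed most of the measured genes of the set. Its brightest probe set read 5.10, 5.19 and 5.20 in p16 samples, against 13.01, 13.07 and 13.37 in mock samples. Within each group the values lay within 0.4 of each other, and the means differed by -7.99 (SE 0.17), which is 254-fold. Its second probe set read 5.08, 5.65 and 5.65 in p16 samples, against 10.60, 11.05 and 11.80 in mock samples, a difference of -5.69 (SE 0.36), or 51.6-fold. V1 was the lowest sample of each group there. Its remaining probe set was at the floor in every sample. The probe set given to both AKR1C1 and AKR1C2 read 2.63, 2.59 and 2.60 in p16 samples, against 6.77, 6.43 and 6.42 in mock samples, at least 5.81-fold lower. AKR1C1 and AKR1C2 are near-identical copies, so that a probe set may hybridise to the transcripts of both, and how much of each value belongs to which gene is uncertain.

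AKR1C3, which makes testosterone from androstenedione and prostaglandin F from its precursors, was 22.9-fold lower in p16 samples but remained well above the floor. Its only probe set read 9.75, 9.64 and 9.82 in p16 samples, against 13.90, 14.32 and 14.54 in mock samples, a difference of -4.52 (SE 0.21). In each V number the p16 sample was lower than the mock sample, by -4.15, -4.68 and -4.72 on the log2 scale. AKR1C4, the form typical of liver, was at the floor in every sample of both groups, at 2.88, 2.81 and 2.82 in p16 samples and 2.79, 3.69 and 3.38 in mock samples. These groups overlapped, and no fold is given. Of 5 hepatocyte markers, ALB, APOA1 and APOA2 were at the floor in every sample too, while TTR and SERPINA1 were at 4 or more in every sample of both groups.

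AKR1B10, a retinal reductase of the gut that is often raised in tumours, had low levels in mock samples and none above the floor in p16 samples. It read 2.93, 2.90 and 2.91 in p16 samples, against 4.78, 5.28 and 5.42 in mock samples, at least 2.24-fold lower. The groups did not overlap. Because all p16 values were at the floor, the fold has no upper bound here, and mock values close to the floor keep its lower bound small.

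The AKR7A genes differed by far less. AKR7A2, which reduces succinic semialdehyde and aflatoxin dialdehyde, read 10.85, 11.01 and 10.62 in p16 samples, against 11.44, 11.62 and 11.22 in mock samples on its brightest probe set. The difference was -0.60 (SE 0.19), or 1.52-fold, and the lowest mock sample lay above the highest p16 sample by 0.21. Its second probe set gave -0.63 (SE 0.23). AKR7A3, its close relative, gave -0.71 (SE 0.29) and -0.49 (SE 0.18) on its 2 probe sets. The first of these read 7.55, 7.66 and 6.74 in p16 samples, against 7.85, 8.20 and 8.03 in mock samples, with p16 V3 well under the others. On the second, AKR7A3 read 7.58, 7.57 and 7.22 in p16 samples, against 8.01, 8.01 and 7.84 in mock samples. The groups did not overlap on any of these 4 probe sets.

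**Figure D1:**
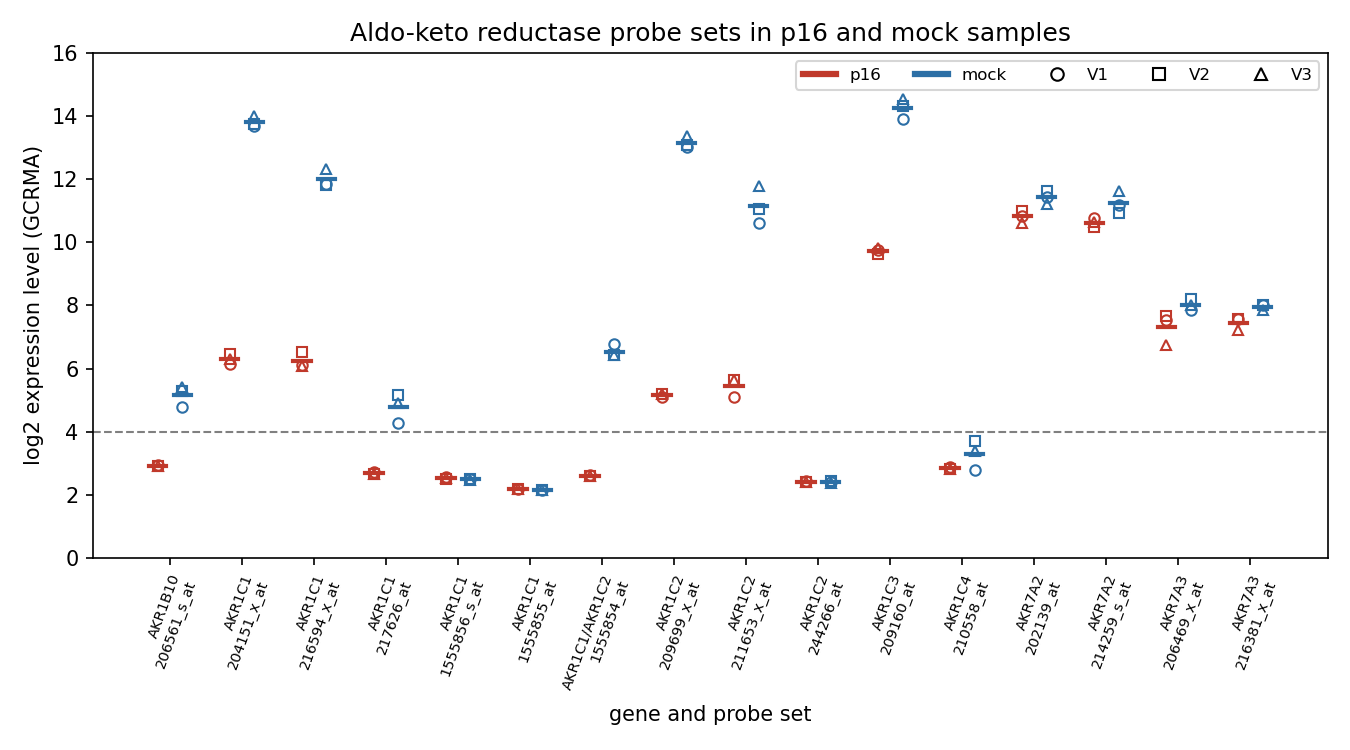
Log2 expression level (y axis) of the 16 probe sets of the aldo-keto reductases (x axis), with p16 samples left and mock samples right at each probe set. Symbols are samples by V number, short bars are group means, and the dashed line is the floor of 4. The AKR1C1 and AKR1C2 probe sets above the floor and AKR1C3 show the widest gaps, with means of 9.74 in p16 samples and 14.25 in mock samples for AKR1C3, while the AKR7A probe sets differ by less than 1.

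The members were selected on these p16 and mock values, their difference between the groups being known, so the values above are a description and no p-value is given for them. A probe set entered the statistical fit (limma over all probe sets, Benjamini-Hochberg adjusted p under 0.05) if it was at 4 or more in at least 3 samples. Of the 16 probe sets, 12 passed, from 6 genes, and 3 of the 12 passed only through their mock values because every p16 sample was at the floor. All 4 that did not pass, among them the probe set of AKR1C4, were at the floor in every sample. Genes outside the set that were at the floor in every p16 sample also passed only through their mock values. Their spread in p16 samples reflects background, so their adjusted p-values below may be too small. In each of the 12 probe sets every p16 sample lay under every mock sample, as in 26.1% of all 24406 probe sets tested. The fit called 8 of the 12 lower and none higher, beside 19.7% of all probe sets called lower, and the 4 not called were those of AKR7A2 and AKR7A3. With the V numbers as a block all 12 were called lower, beside 32.6% of all probe sets. Among genes, each represented by the brightest of its tested probe sets, 4895 of 11658 were called, or 42.0%, 19.5% higher and 22.5% lower, and with the block 67.9%. That count lay between 2967 and 3196 when any sample numbered V2 or V3 was left out. By size of difference from the most negative up, AKR1C2 ranked 51, AKR1C1 71, AKR1C3 371, AKR7A2 3662 and AKR7A3 4017 among the 11658 genes. These ranks are approximate because genes at the floor in 1 group are ranked by a difference that depends on background, and AKR1B10 is given no rank for that reason.

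**Figure D2:**
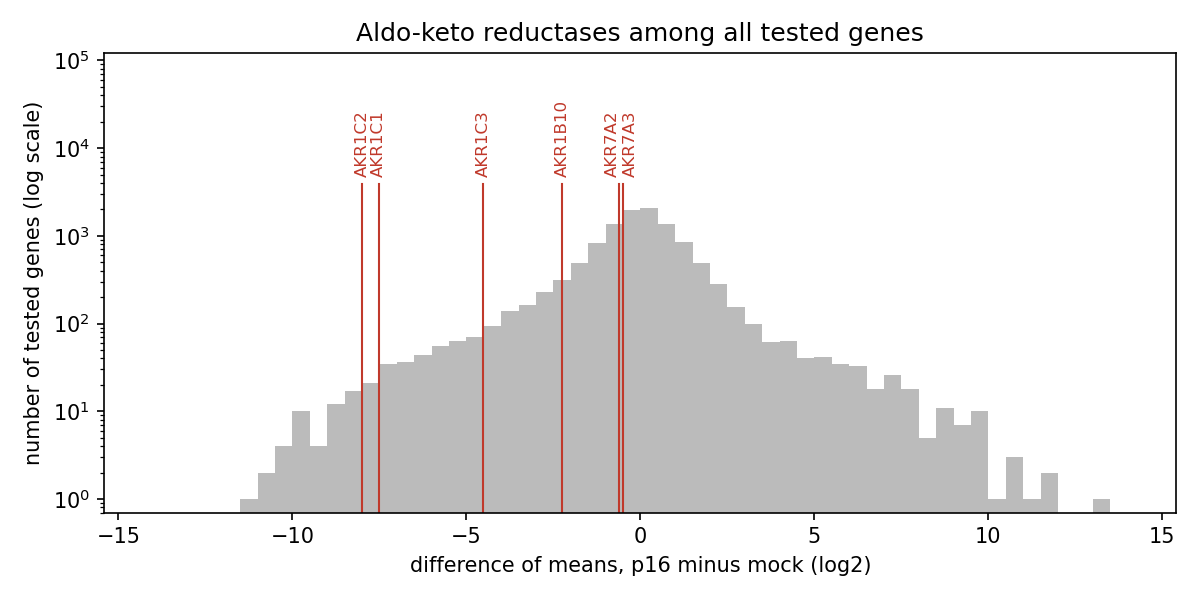
Histogram of the difference of means, p16 minus mock, on the log2 scale (x axis) over 11658 tested genes, with the number of genes on a log scale (y axis). Red lines mark the 6 tested aldo-keto reductases, from AKR1C2 at -7.99 to AKR7A3 at -0.49. At the floor these differences are no exact folds.

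The V number was not used to choose the members and could be tested. In a fit with group and V number, limma's F test for the V number called none of the 12 tested probe sets of the set, while it called 33.0% of all probe sets and 32.2% of genes. In 3 of the 12 every p16 sample was at the floor, so that only their mock samples could show such a difference, and none of the other 9 was called either. At an unadjusted p under 0.05 the count was 1 of 12, beside 47.0% of all probe sets. No absence of a V difference follows from these counts. The lowest adjusted p belonged to the second AKR1C2 probe set named above (0.091). Across the array this test called 3758 genes. The count fell strongly when a V2 or V3 sample was left out and little when a V1 sample was. Such a fit keeps only 1 sample of that V number, so the losses do not show on what the test rested. The differences within a V number were also close to each other for the brightest probe sets, at -7.55, -7.30 and -7.71 for AKR1C1 and -7.91, -7.88 and -8.18 for AKR1C2 in V1, V2 and V3.

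Genes beside the AKR1C cluster were set against it. The nearest 10 genes on either side that are on the array were taken in the order of the GRCh38.p14 annotation. Of these 20 neighbours, 10 were tested, of which 4 fell, 1 rose and 5 were not called, beside 22.5% lower and 19.5% higher over all genes. With the replicate block 5 fell and 2 rose, TASOR2 being added to those that rose (adjusted p = 0.015) and ASB13 to those that fell (adjusted p = 0.034). KLF6, a zinc finger transcription factor, fell by 1.44 on the log2 scale (SE 0.17, limma adjusted p = 0.0018), to 10.01 ± 0.18 in p16 samples, against 11.45 ± 0.13 in mock samples (SD, n = 3). NET1, an exchange factor for RhoA, fell by 1.62 (SE 0.43, adjusted p = 0.032), and PITRM1, a mitochondrial peptidase, by 0.57 (SE 0.18, adjusted p = 0.049). The KLF6 call ended with the mean over its probe sets, the PITRM1 call when any 1 sample was left out, with the filter at 6 and with quantile normalization, and the NET1 call without mock V2, mock V3, p16 V2 or p16 V3 and without the low value filter. ANKRD16 rose by 1.53 (SE 0.24, adjusted p = 0.0047). GDI2, which recycles Rab proteins, read 14.31 ± 0.37 in p16 samples and 14.38 ± 0.22 in mock samples (adjusted p = 0.86). AKR1E2, the tested neighbour nearest to AKR1C1, fell by 0.79 on its brightest probe set (adjusted p = 0.024). On its other tested probe set every p16 sample was at the floor, so that only a bound of at least 8.34-fold lower can be given. AKR1C3, above the floor in every sample, was 22.9-fold lower. Apart from AKR1E2, the neighbours named here were chosen after their values had been seen.

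**Figure D3:**
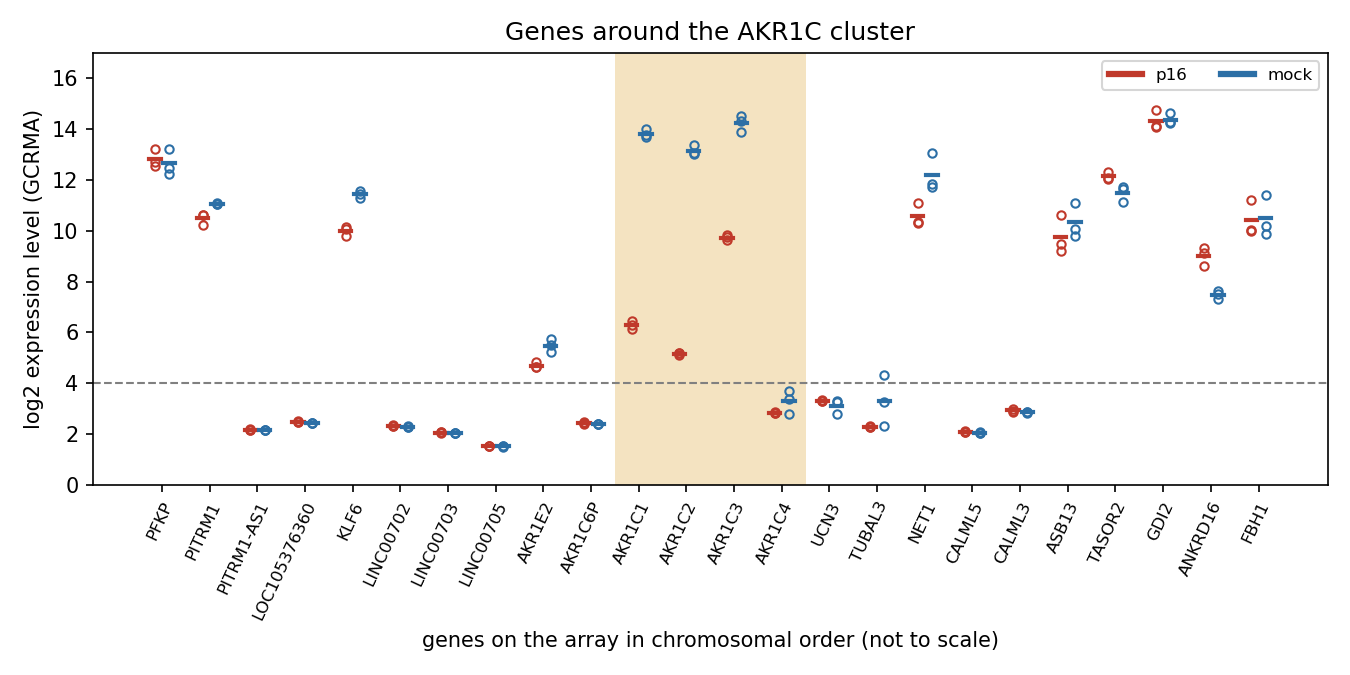
Log2 expression level (y axis) of genes on the array around the AKR1C cluster, in chromosomal order and not to scale (x axis), with p16 samples left (red) and mock samples right (blue). Circles are samples, bars are means of 3, the dashed line is the floor of 4, and shading marks AKR1C1 to AKR1C4. AKR1C1, AKR1C2 and AKR1C3 lie far apart between the groups, while PFKP, GDI2 and FBH1 overlap.

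Among relatives of the same fold outside the 9 genes, AKR1E2 and KCNAB2 were tested and fell. AKR1E2, a reductase that lies near AKR1C1, fell on both of its tested probe sets. The first read 2.65, 2.55 and 2.64 in p16 samples, against 6.43, 7.37 and 7.38 in mock samples, at least 8.34-fold lower (limma adjusted p = 0.00018). Its p16 samples were all at the floor, so that this p-value may be too small. The other fell by 0.79 (SE 0.19, adjusted p = 0.024), a call that ended when any sample other than mock V2 was left out and with quantile normalization. With the mean over tested probe sets AKR1E2 fell by 2.62, which is no exact fold because it takes in the probe set at the floor. KCNAB2, a channel subunit with the aldo-keto reductase fold, read 4.96, 5.10 and 4.47 in p16 samples, against 9.20, 9.50 and 9.37 in mock samples, 22.9-fold lower (adjusted p = 5.5e-05). AKR1D1, which reduces the steroid ring in liver, KCNAB1, KCNAB3 and the pseudogene AKR1C6P were at the floor in every sample. Of reductases from other families, CBR3, a carbonyl reductase, rose by 2.83 (SE 0.23, adjusted p = 0.00038), to 8.36 ± 0.37 in p16 samples, against 5.53 ± 0.09 in mock samples. DHRS2 fell at least 10.8-fold (adjusted p = 0.00026), also with every p16 sample at the floor. In the list of other aldo-keto reductases, carbonyl reductases and alcohol dehydrogenases, 10 of 18 genes on the array were tested. Of these 1 rose, 3 fell and 6 were not called, or 40% called beside 42.0% of all genes. Their median difference was 0.13, beside -0.03 over all genes. With the block 4 rose and 3 fell, beside 67.9% of all genes called. Without mock V1 or mock V3 only 2 were called, and the DHRS2 probe set named here could not pass the filter there.

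Known targets of NRF2 outside the set went both ways, as genes over the whole array did (19.5% higher and 22.5% lower). TXNRD1, thioredoxin reductase, read 15.50, 15.19 and 15.24 in p16 samples, against 13.35, 12.11 and 12.21 in mock samples, 6.74-fold higher (limma adjusted p = 0.0026). SLC7A11, which imports cystine for glutathione synthesis, read 11.90, 10.92 and 11.06 in p16 samples, against 8.55, 6.58 and 7.36 in mock samples, 13.9-fold higher (adjusted p = 0.0038). Both were therefore high in the samples in which AKR1C1, AKR1C2 and AKR1C3 were low. CBR3, named above among the carbonyl reductases, is on this list as well and rose by 2.83 (adjusted p = 0.00038). ABCC3, an export pump for conjugates, fell by 2.35 (SE 0.37, adjusted p = 0.0051) on its brightest probe set (-6.18 with the mean over its 5 probe sets, all of which fell), and OSGIN1 by 1.62 (SE 0.24, adjusted p = 0.0040). NQO1, a quinone reductase widely used as a readout of NRF2, read 13.96 ± 0.35 in p16 samples and 14.57 ± 0.43 in mock samples on its brightest probe set (adjusted p = 0.17, and 0.0086 with the block), and 1 of its 3 probe sets fell. GCLM, the regulatory subunit of glutamate-cysteine ligase, differed by 0.35 on its brightest probe set (adjusted p = 0.50, and 0.045 with the block). Of its 3 probe sets, 1 rose, by 0.70 (adjusted p = 0.016). SRXN1, sulfiredoxin, differed by 0.20 (adjusted p = 0.36). Of 27 listed targets on the array, 24 were tested, of which 4 rose, 3 fell and 17 were not called, or 8 and 7 with the replicate block, and 7 and 5 without both V1 samples. That is 29.2% called in the main fit, beside 42.0% of all genes, and 67.9% of all genes with the block. The median difference of the targets was 0.13, beside -0.03 over all 11658 genes.

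NRF2 itself, encoded by NFE2L2, fell by 0.80 (SE 0.18, adjusted p = 0.019), to 11.89 ± 0.09 in p16 samples, against 12.69 ± 0.24 in mock samples. This call ended without mock V2, mock V3, p16 V2 or p16 V3 and with the mean over probe sets (-0.49), and on a second tested probe set NFE2L2 differed by -0.18 (adjusted p = 0.91). KEAP1, the adaptor that marks NRF2 for degradation, differed by -0.91 (SE 0.50, adjusted p = 0.22, and 0.0027 with the block). MAFG, a partner of NRF2 on DNA, rose by 0.71 (SE 0.18, adjusted p = 0.029), a call that ended when any sample other than mock V1 was left out and with the mean over its probe sets (1.12). Of 11 tested regulators of this pathway 1 rose, 1 fell and 9 were not called, beside 19.5% higher and 22.5% lower over all genes. With the block 4 rose and 5 fell, beside 67.9% of all genes called. Without both V1 samples 4 rose and 3 fell. The count was 0 without mock V2, mock V3, p16 V2 or p16 V3, and 1 without p16 V1.

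Enzymes that handle the same steroids and prostaglandins as the AKR1C reductases were examined next. HPGD, which inactivates prostaglandins, read 2.39, 2.51 and 2.73 in p16 samples, against 9.54, 9.04 and 9.63 in mock samples, at least 42.3-fold lower (limma adjusted p = 1.4e-05), with 3 of its 4 probe sets lower. HSD17B2, which inactivates estradiol and testosterone, was at the floor in all p16 samples, against 8.81, 8.21 and 7.88 in mock samples, at least 19.7-fold lower (adjusted p = 3.1e-05). HSD17B12 read 6.72 ± 0.69 in p16 samples and 11.95 ± 0.30 in mock samples, 37.5-fold lower (adjusted p = 0.00027). PTGS1, a cyclooxygenase, fell 15.1-fold (adjusted p = 0.0047), and PTGES, a prostaglandin E synthase, at least 7.07-fold (adjusted p = 1.8e-05). Every p16 sample of HPGD, HSD17B2 and PTGES was at the floor, so that their p-values may be too small. The authors' values of this PTGES probe set were also equal in all 3 mock samples, so its spread is understated, and its other tested probe set was not called. Of 21 genes tested out of 35 on the array, 3 rose, 11 fell and 7 were not called, with a median difference of -0.76, beside 19.5% higher, 22.5% lower and a median of -0.03 over all genes. Whether the list differs from other genes was not tested. With the block 4 rose and 12 fell, beside 67.9% of all genes called. Without mock V2 or mock V3 the count was 8. In those fits the HPGD, HSD17B2 and PTGES probe sets named here could not pass the filter and were not tested.

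Genes of retinoid metabolism included several with large differences. STRA6, a receptor that takes up retinol, read 3.51, 3.48 and 3.50 in p16 samples, against 9.60, 9.63 and 8.98 in mock samples, at least 42.3-fold lower (limma adjusted p = 2.3e-05). Its p16 samples were all at the floor, so that this p-value may be too small. RBP4, the retinol carrier of plasma, fell by 4.97 (SE 0.36, adjusted p = 0.00025) on 1 tested probe set. DHRS3, which reduces retinal to retinol as AKR1B10 does, fell by 3.70 (SE 0.23, adjusted p = 0.00013). CYP26B1, which breaks down retinoic acid, fell by 2.20 (SE 0.56, adjusted p = 0.028) and RETSAT by 1.57 (SE 0.45, adjusted p = 0.039). The CYP26B1 call ended without mock V2, p16 V2 or p16 V3, and the RETSAT call when any sample other than p16 V1 was left out, and both ended without the low value filter. Of 10 genes tested out of 18 on the array, 1 rose, 6 fell and 3 were not called, with a median difference of -1.39. Over all genes 19.5% were higher and 22.5% lower, with a median of -0.03, and whether the list differs from them was not tested. The count was 4 without mock V2, p16 V2 or p16 V3. With the block 1 rose and 6 fell, beside 67.9% of all genes called. Without a mock sample the STRA6 probe set named here could not pass the filter and was not tested.

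Enzymes next to the reductases in sugar and dicarbonyl metabolism also changed in both directions. GLO1, which clears methylglyoxal by another route than the reductases, read 14.89, 14.77 and 14.72 in p16 samples, against 13.22, 13.14 and 13.39 in mock samples, 2.90-fold higher (limma adjusted p = 0.00091). TKFC, which phosphorylates triose sugars, fell by 2.57 (SE 0.19, adjusted p = 0.00025) and GFPT1, which starts the hexosamine pathway, by 1.17 (SE 0.25, adjusted p = 0.014). UGDH, which makes UDP-glucuronic acid and is on the NRF2 list as well, fell by 0.91 (SE 0.21, adjusted p = 0.020), and CRYL1, a crystallin-related dehydrogenase, by 0.88 (SE 0.24, adjusted p = 0.033). The CRYL1 call ended when any 1 sample was left out, with quantile normalization and without the low value filter, the UGDH call without mock V3, p16 V2 or p16 V3, and the GFPT1 call without p16 V2 or p16 V3. Of 8 genes tested out of 10 on the array, 1 rose, 4 fell and 3 were not called, with a median difference of -0.52. Over all genes 19.5% were higher and 22.5% lower, with a median of -0.03, and whether the list differs from them was not tested. The count was 3 without mock V3 and 2 without p16 V2 or p16 V3. With the block 1 rose and 4 fell, beside 67.9% of all genes called.

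**Figure D4:**
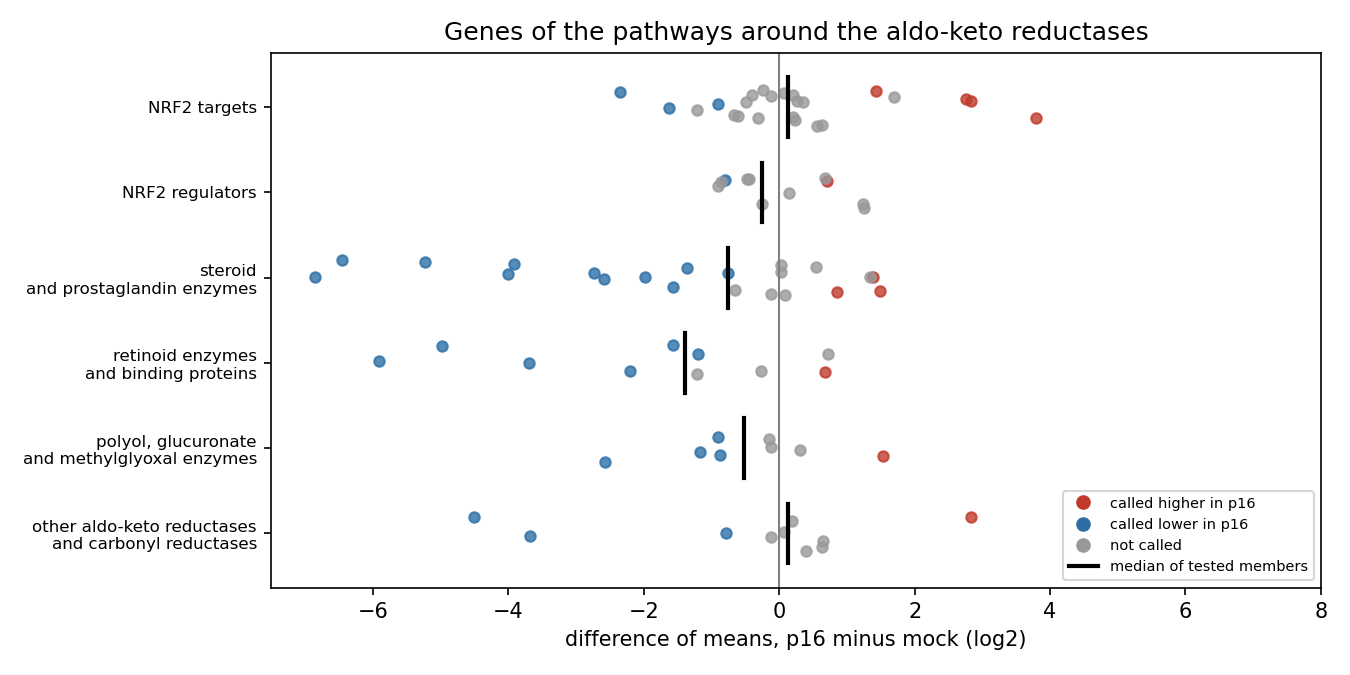
Difference of means, p16 minus mock, on the log2 scale (x axis) for the tested genes of the 6 lists around the aldo-keto reductases (rows). Each point is a gene, red where called higher in p16 samples, blue where called lower and grey where not called, and black bars are medians. NRF2 targets lie on both sides of 0, from ABCC3 at -2.35 on its brightest probe set (-6.18 with the mean over its probe sets) to SLC7A11 at 3.80, and steroid and prostaglandin enzymes reach -6.86 with HPGD. At the floor, as for HPGD in p16 samples, these differences are no exact folds.

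Among 11652 tested genes outside the set, those most like AKR1C2 over the 6 samples, by Euclidean distance between levels centred on each gene's own mean, were CRNDE, APOBEC3B, SELENBP1, AHNAK2 and NXN. Their distances were 0.17 to 0.52 on the log2 scale, and AKR1C1 itself lay at 0.60. Every p16 sample of CRNDE, APOBEC3B, SELENBP1 and AHNAK2 was at the floor, so their distances and order depend on background. CRNDE, a long non-coding RNA gene, read 3.26, 3.22 and 3.24 in p16 samples, against 11.20, 11.18 and 11.59 in mock samples, at least 160-fold lower. These genes were chosen for that difference, and no p-value is given for it. APOBEC3B, a cytidine deaminase, was at least 128-fold lower, and SELENBP1, a selenium-binding protein, at least 77.5-fold. NXN, a thioredoxin-like oxidoreductase, was like AKR1C2 above the floor in every p16 sample, at 5.01, 4.99 and 5.07, against 12.57, 12.46 and 12.79 in mock samples. With only 6 samples in 2 groups, this likeness rests mainly on the size of the difference between the groups.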

How the data were processed

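Total RNA of 6 Capan-1 samples had been labelled with biotin and hybridised to Affymetrix arrays, per the labels' protocols. The deposited values are log2 levels that the authors made with GCRMA, per the submitters' processing notes, with no version. Scanner files were not used here. Folds against the floor depend on GCRMA's background model. Where any sample of the lower group lay under 4, its values were raised to 4 and the fold is given as at least that size.

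Of 54675 probe sets, 62 controls were left out. GEO's platform annotation gave 41091 of the rest 1 gene, 1801 several and 11721 none. Gene order and promoter windows came from RefSeq (GRCh38.p14). Groups were tested with limma 3.58.1 (lmFit and eBayes, two-sided, no block, R 4.3.3) on 24406 probe sets at 4 or more in at least 3 samples, and the test was checked on simulated data. The simulated samples were independent, without pairing or a V number effect, so the check does not cover these. The members and gene lists were chosen with earlier results of these data known, so the p-values of listed genes are no independent support. Named genes are the members, their relatives, CDKN2A, MTAP, 6 genes of the NRF2 pathway, up to 5 called genes per list with the largest change, and the 5 genes most like AKR1C2; SORD, also in the rule, was not analysed here. Deviations from group means correlated at 0.81, 0.75 and 0.67 between same-numbered samples. By the rule used (all over 0.1) these count as pairs, and a fit with a replicate block is an alternative. However, p16 V3 with mock V2 and p16 V2 with mock V3 also gave 0.51 and 0.42. Pairs of a V1 sample with another number gave -0.74 to -0.62, so that V1 stands apart from V2 and V3. Calls without mention of the block ignore any pairing. Others changed the filter, variance model, normalization and probe set rule or left samples out. Python 3.11.15, pandas 2.3.3, Biopython 1.88 and matplotlib 3.10.9 made tables and figures. The number of arrays limits the precision.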

Additional observations from a re-analysis of the deposited data

How the results depend on the processing

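The differences of AKR1C1, AKR1C2, AKR1C3, AKR1B10, AKR7A2 and AKR7A3 kept their sign under every alternative that could be run. They moved by more than the spread between replicates only with the mean over tested probe sets, at -5.13 for AKR1C1 and -6.84 for AKR1C2. The AKR1C1 mean takes in a probe set at the floor in every p16 sample and is no exact fold. With the replicate block, 7916 genes were called against 4895, 15 NRF2 targets against 7, 9 NRF2 regulators against 2, and 7 other reductases against 4. The block changed no other list count by over 1.5 times, while the share of all genes called rose from 42.0% to 67.9%. With the mean over probe sets, 11 NRF2 targets and 0 NRF2 regulators were called, and differences became 8.24 for CDKN2A, 6.72 for MTAP, -5.38 for HPGD, -2.01 for PTGES, -4.04 for STRA6, -2.48 for DHRS2 and -6.63 for CRNDE, since it includes dimmer probe sets. These differences are no exact folds, because each mean takes in a probe set at the floor in every sample of 1 group. Without the low value filter, 4 retinoid genes were called, against 7, and the V number called 1917 genes, against 3758. Leaving out both V1 samples, an alternative chosen after seeing the data, gave 12 NRF2 targets and 7 NRF2 regulators, while the V number called 0 genes. With 1 sample left out, the counts ranged from 2967 to 4288 for all genes, 6 to 9 for NRF2 targets, 0 to 2 for NRF2 regulators, 8 to 13 for steroid and prostaglandin enzymes, 4 to 6 for retinoid genes, 2 to 4 for polyol and related enzymes, 2 to 4 for other reductases and 0 to 3661 for the V number. These fits had fewer samples. Without a mock sample, probe sets at the floor in every p16 sample could not pass the filter and were not tested. Among them were those named for HPGD, HSD17B2, PTGES, STRA6 and DHRS2, so lower counts partly reflect untested genes. The cause of the other changes was not tested. Of 41 named genes outside the set only GDI2, never called, turned its sign, with differences of -0.28 to 0.057 when 1 sample was left out and positive ones without mock V1, p16 V2 or p16 V3, while 54 results of these genes over all alternatives lost a call and 5 gained one. Signal near the floor limits AKR1B10, AKR1C4 and AKR1E2.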
